A study of Mus musculus with 6 samples.

Results

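The solute carriers are a large superfamily of membrane transport genes, and 175 genes with their symbols, other than carriers bound to the stress response and to iron, were followed in mouse macrophages exposed to fungal vesicles. They were chosen as the protein-coding entries whose symbol begins with Slc and a digit and that had at least 60 counts summed over the 6 libraries, without 13 carriers excluded by name (Slc7a1, Slc7a2, Slc7a5, Slc7a11, Slc3a2, Slc1a4, Slc1a5, Slc38a2, Slc11a1, Slc11a2, Slc40a1, Slc39a14 and Slc2a1). The table held 360 such entries, of which 188 reached the minimum and 172 did not, 75 of those with no count in any library. The 175 members stood among 41972 entries in all. Slc9a3r1 and Slc4a1ap, counted with the ion class, and Slc7a6os, counted with the amino acid class, are only named for a carrier and are not carriers themselves. Slc26a9 (62 counts), Slc7a7 (68) and Slc10a6 (70) lay just inside the minimum, and Slc14a1 (55), Slc22a18 (53) and Slc22a21 (52) just outside it.

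Bone marrow from wild-type male C57BL/6 mice aged 6 weeks was cultured for 6 days in 20% fetal serum and 30% medium from L-929 cells, which secrete the macrophage growth factor Csf1. The macrophages then received either PBS or, at 20 µg per well, extracellular vesicles (EVs), the small membrane-bound particles that cells shed, of the mould Aspergillus flavus, and were collected at 6 h. One EV group carries the strain name LD-F1 and the other LD-F1_b, and the labels do not say how these differ. Each of the 3 groups had 2 libraries, named biological replicates in the design text. Nothing in the labels says whether the replicates came from separate mice.

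Solute carriers move small molecules and ions across membranes without spending ATP directly, by letting a solute run down its gradient or by coupling it to a sodium, proton or other ion gradient. Those at the cell surface feed and empty the cell, those of the Golgi and endoplasmic reticulum supply protein modification, those of mitochondria exchange metabolites with the matrix, and those of lysosomes return the products of digestion to the cytosol. In macrophages they are known for lactate release during glycolysis, for control of phagosome pH, for the handling of zinc and copper as antimicrobial metals, and for the export of peptides and nucleosides from lysosomes.

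The libraries held 13722215 to 15277997 counts, so that 3 counts correspond to 0.189 to 0.225 counts per 1000000 (CPM, on library totals scaled by TMM). All 175 members entered the test, and their share of a library's counts was between 1.31 and 1.43%. Of 8 macrophage markers, 7 were in the table, with Csf1r at 1142 to 1336 CPM and Itgam and Mertk under 1 CPM throughout. They summed to 2777 to 2789 CPM with PBS, 3185 to 3221 CPM with LD-F1 EVs and 3123 to 3223 CPM with LD-F1_b EVs. Cd14 alone of them was called, higher with both EVs, at 417 and 427, 893 and 1083, and 750 and 805 CPM in that order. Markers of neutrophils, erythroid cells, T cells, B cells and fibroblasts summed to under 1 CPM in every library, with 3 of 5, 2 of 4, 2 of 3, 2 of 3 and 1 of 4 at 0 throughout, and all 3 mast cell markers were at 0. Endothelial markers summed to 0.498 to 2.17 CPM and megakaryocyte markers to 5.98 to 10.3 CPM. The 4 osteoclast markers summed to 219 to 243 CPM with PBS, 298 to 350 CPM with LD-F1 EVs and 293 to 294 CPM with LD-F1_b EVs, and the 3 dendritic cell markers to 1.13 to 1.5, 7.79 to 8.39 and 4.08 to 5.49 CPM, with none at 0 throughout. Dcstamp and Xcr1 made up most of these 2 rises, at 140 to 161 CPM and 1.13 to 1.3 CPM with PBS and 220 to 267 CPM and 7.72 to 8.39 CPM with LD-F1 EVs. The part of either in the results was not tested. The replicates of LD-F1 differed in a length-dependent way: across all tested genes the difference of replicate 2 from replicate 1 had a rank correlation with gene length of -0.48, against -0.2 in LD-F1_b and -0.0083 in PBS. In bulk RNA, fewer cells of a type and less RNA per cell cannot be told apart.

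The question of the first comparison was how the carriers of macrophages given LD-F1 EVs differed from those given PBS. Of the 175 members, 28 rose and 23 fell at a Benjamini-Hochberg adjusted p under 0.05 in edgeR's quasi-likelihood test. This was 29.1% of the members, where 21.2% of the 12740 genes tested were called in either direction, 11.4% higher and 9.87% lower. The median log2 fold change of the members was -0.04, beside 0.006 over all genes tested. Among the called members, 6 were at least 2-fold higher (Slc15a3, Slc6a9, Slc39a4, Slc30a1, Slc25a33 and Slc4a7) and 2 at least 2-fold lower (Slc7a4 and Slc29a3). The libraries of both groups did not overlap for 65.7% of the members, where the share over all genes tested was 59.5%. The split between rises and falls depended on scaling: with library totals alone, which moved the median of all genes by -0.105, 17 members rose and 37 fell. The number called also followed single libraries. Without PBS replicate 1 it was 12 higher and 7 lower, and without LD-F1 replicate 1 it was 34 higher and 41 lower.

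With LD-F1_b EVs, 17 members rose and 12 fell against PBS, or 16.6% of them. The share over all genes tested was 11% in either direction, 6.44% higher and 4.54% lower. The median of the members was -0.01, beside 0.006 over all genes. With library totals alone the balance turned, to 15 higher and 17 lower. Without LD-F1_b replicate 1 the counts were 7 and 4, without its replicate 2 they were 10 and 4, and without either PBS replicate 8 and 5. Without LD-F1 replicate 1 they were 29 and 25, and without LD-F1 replicate 2 they were 28 and 25. One called member was at least 2-fold higher (Slc39a4) and 1 at least 2-fold lower (Slc29a3). The libraries did not overlap for 68% of the members, where 60.4% of all genes tested were apart. Both EV comparisons use the same PBS libraries. Of the members that rose, 16 did so in both comparisons, 57.1% of the LD-F1 list and 94.1% of the LD-F1_b list. Of those that fell, 12 did so in both, 52.2% of the LD-F1 list and all of the LD-F1_b list. The matching shares over all genes tested were not counted, so this sharing is not shown to be particular to the members.

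**Figure D1:**
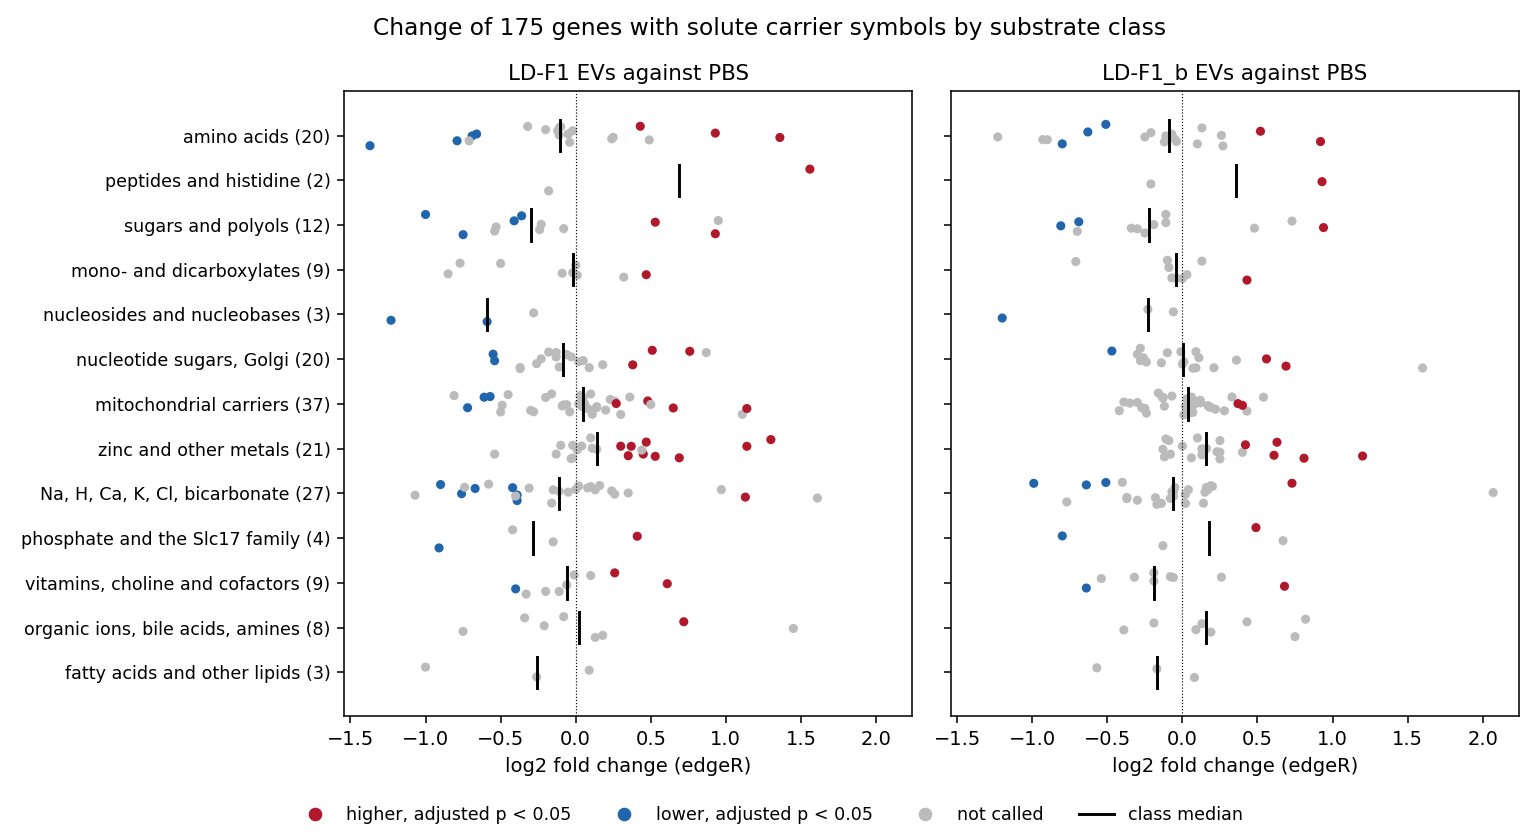
Each point is one of the 175 members (3 of them only named for a carrier), plotted by its log2 fold change from edgeR against PBS (x axis) in its substrate class (y axis, number of members in brackets), for LD-F1 EVs on the left and LD-F1_b EVs on the right. Red and blue points passed the test as higher or lower, grey points did not, and black bars are class medians; among zinc and other metals 9 and 5 members are red and none is blue.

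The direction differed between substrate classes in the counts. For LD-F1 EVs, zinc and other metals had 9 members higher and 0 lower of 21, and ions (sodium, proton, calcium, potassium, chloride and bicarbonate) had 1 higher and 6 lower of 27. Sugars and polyols had 2 higher and 4 lower of 12, amino acids 3 and 4 of 20, mitochondrial carriers 4 and 3 of 37, and the Golgi and nucleotide sugar family 3 and 2 of 20. Both called nucleoside carriers of 3 fell, and no member rose or fell among the 3 fatty acid carriers. Called in either direction were 42.9% of the metal class, 50% of sugars, 35% of amino acids, 25.9% of ions, 25% of the Golgi family and 18.9% of the mitochondrial family, beside 21.2% of all genes tested. The last 3 shares lie near that of all genes. For LD-F1_b EVs the shares were 23.8% of the metal class, 25% of sugars and 25% of amino acids, beside 11% of all genes. They were 14.8% of ions, 15% of the Golgi family and 5.41% of the mitochondrial family. With offsets for the trend with gene length, ions had 4 higher and 4 lower for LD-F1 EVs, and metals 8 and 0. The class counts are a description, and no test set the classes against each other.

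Levels between genes can be set side by side only per length, and for this the counts were divided by gene length and scaled to sum to 1000000 in every library. On that scale 165 members were at 1 or more in PBS, 130 at 10 or more and 25 at 100 or more, with a median of 26.7. The highest was Slc25a5, the mitochondrial ADP/ATP carrier, at 830 in PBS. It was followed by the fatty acid carrier Slc27a1 at 566, the mitochondrial phosphate carrier Slc25a3 at 399 and the haem carrier Slc48a1 at 383. The taurine carrier Slc6a6 stood at 339 and the lactate carriers Slc16a3 and Slc16a1 at 286 and 282. The 37 mitochondrial carriers made up 29.6% of the summed level of the members in PBS, 30.7% with LD-F1 EVs and 31.4% with LD-F1_b EVs. The 20 members of the amino acid class summed to 1612 ± 42.5 in PBS. With LD-F1 EVs the sum was 1189 ± 187, and with LD-F1_b EVs 1239 ± 5.34 (mean ± SD, n = 2 each). Amino acid carriers excluded by name are not in that sum. With LD-F1 EVs all of these but Slc1a5 (301 to 286) had a higher mean on this scale, Slc3a2 among them (317 to 535). All 175 members together summed to 10397 ± 83.4 in PBS, 9592 ± 655 with LD-F1 EVs and 9767 ± 174 with LD-F1_b EVs. This scale uses no TMM factors, so its shifts between groups can differ from those of CPM. With LD-F1 EVs, Slc1a5 went from 404 to 433 CPM but from 301 to 286 per length. In edgeR's fit the median log2 fold change of the members was -0.04 and -0.01.

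**Figure D2:**
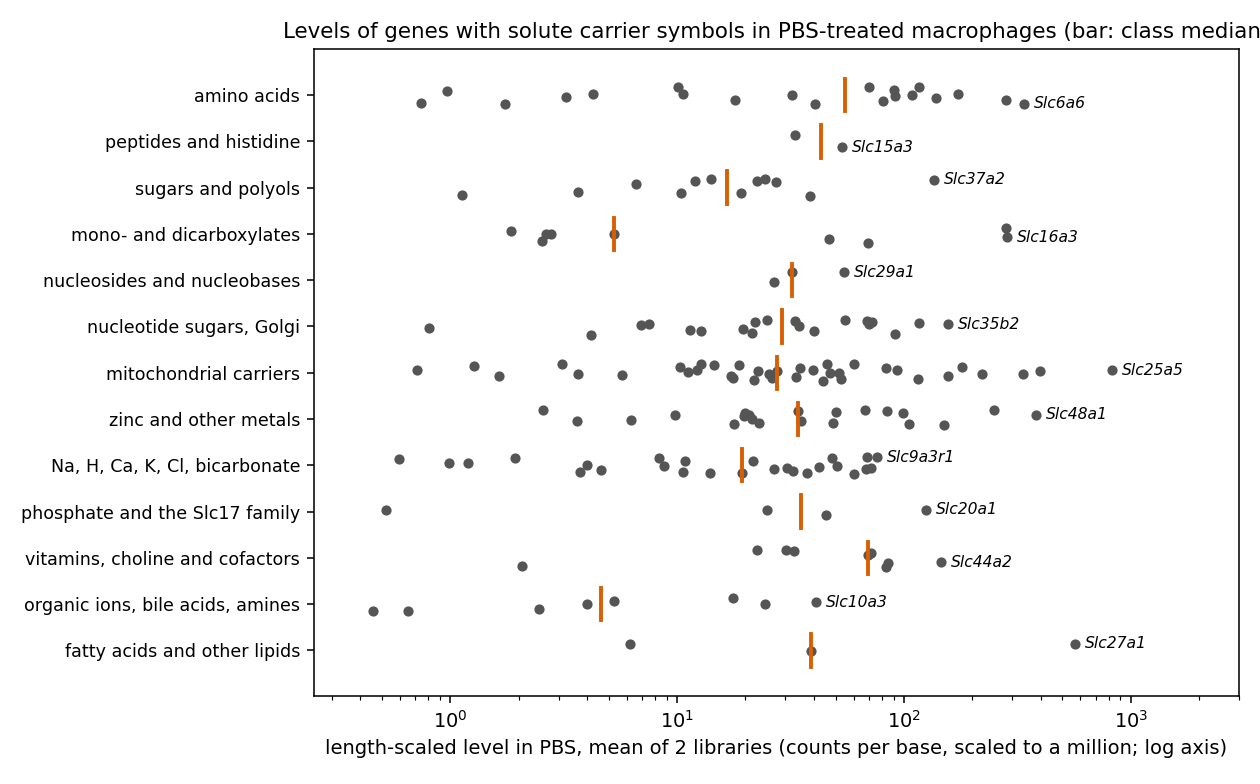
Length-scaled level in PBS (x axis, log scale, mean of 2 libraries, counts per base scaled to sum to 1000000) of every member by substrate class (y axis), with the class median as an orange bar and the highest member named. Slc25a5 is highest at 830, and 165 of the 175 members are at 1 or more.

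Of the 19 carriers that were called for LD-F1 EVs under every setting tried, 9 were also called under every setting for LD-F1_b EVs. They were Slc15a3, Slc2a6, Slc35b1, Slc39a4, Slc4a7 and Slc6a9, which rose, and Slc37a2, Slc4a2 and Slc6a12, which fell. The 10 others were Slc16a3, Slc22a4, Slc25a33, Slc25a37, Slc30a1 and Slc31a2, which rose with LD-F1 EVs, and Slc17a5, Slc29a3, Slc6a6 and Slc6a8, which fell. The settings include leaving out each library in turn. Each of the other 32 calls for LD-F1 EVs and 20 calls for LD-F1_b EVs was lost without at least 1 library.

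**Figure D3:**
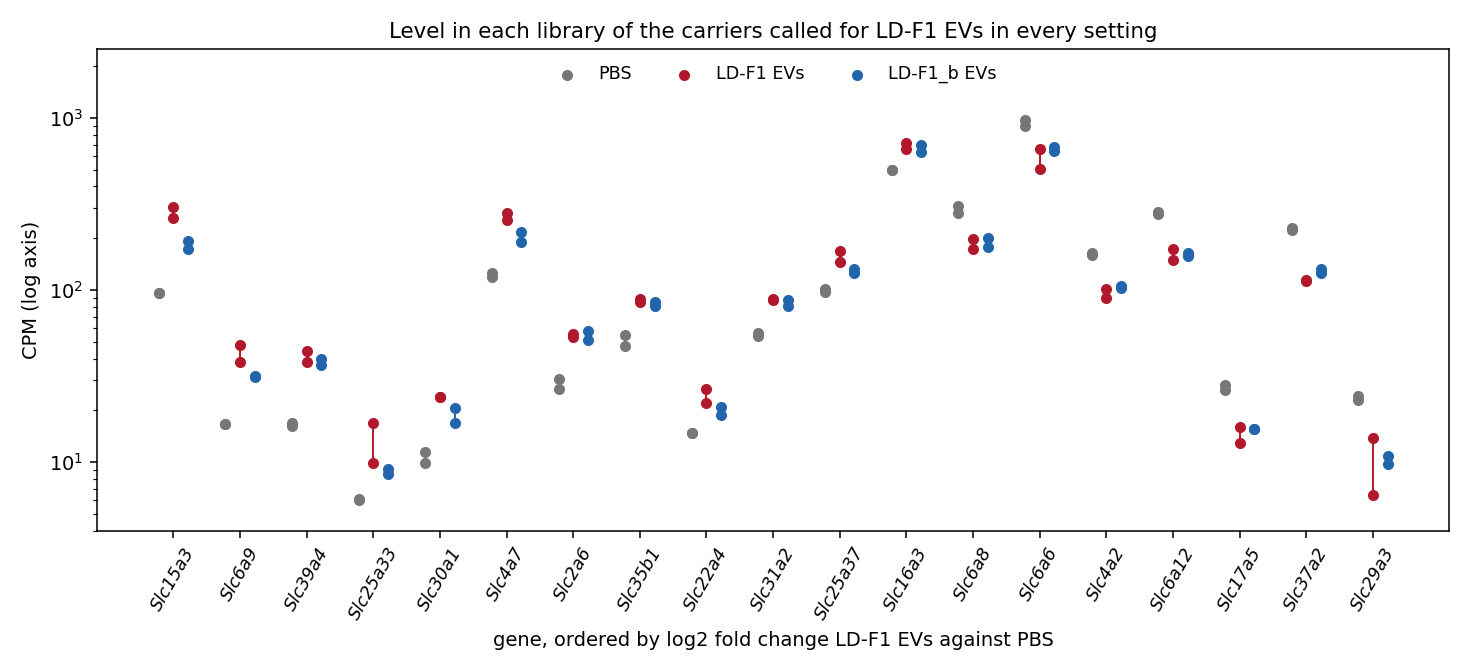
CPM (y axis, log scale) in each library of the 19 carriers called for LD-F1 EVs under every setting, ordered by log2 fold change (x axis), with PBS in grey, LD-F1 EVs in red and LD-F1_b EVs in blue; a line joins the 2 libraries of a group. Slc15a3 is the one member in which the LD-F1_b libraries (174 and 192 CPM) were called apart from the LD-F1 libraries (303 and 262 CPM).

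The member with the largest called rise was a lysosomal carrier of peptides and histidine, Slc15a3 (MGP_C57BL6NJ_G0025274, chr19:8564532-8587122, plus strand, in the C57BL/6NJ annotation whose identifiers the table uses). It stood at 96.2 and 95.6 CPM in the PBS libraries, 303 and 262 CPM with LD-F1 EVs and 174 and 192 CPM with LD-F1_b EVs. The 3 groups did not overlap, with LD-F1_b EVs between the others. The log2 fold change against PBS was 1.56 ± 0.10 (SE) for LD-F1 EVs, or 2.95-fold, at an adjusted p of 5.7e-07 by edgeR. For LD-F1_b EVs it was 0.93 ± 0.10, or 1.91-fold, at an adjusted p of 7.58e-05. Slc15a3 overlaps Tmem132a on the opposite strand by 1541 bases, and the sources used here do not give the counting's strand setting. Tmem132a had 1036 counts in all and Slc15a3 16003. The related endolysosomal carrier Slc15a4, known for its part in Toll-like receptor signalling, was at 60.5 and 54.2 CPM with PBS, 49.2 and 52.3 CPM with LD-F1 EVs and 47.9 and 51.5 CPM with LD-F1_b EVs. It did not pass the test, and the 95% interval of its log2 fold change ran from -0.41 to 0.05 and from -0.44 to 0.02.

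Among metal carriers, zinc leaves the cytosol through the Slc30 family and enters it through the Slc39 family, while Slc31, Slc41 and Slc48 handle copper, magnesium and haem. With LD-F1 EVs 9 of the 21 rose and none fell, at a class median of 0.14, and with LD-F1_b EVs 5 rose and none fell, at a median of 0.16. Over all genes tested, 11.4% rose with LD-F1 EVs and 6.44% with LD-F1_b EVs. Of 6 Slc30 members, 4 rose with LD-F1 EVs and 2 with LD-F1_b EVs, and of 9 Slc39 members 2 rose in each comparison. Without PBS replicate 1 the LD-F1 count was 3. For LD-F1_b EVs the count of 5 became 2 when LD-F1_b replicate 1 was left out, 3 without its replicate 2, 3 without PBS replicate 1, 1 without PBS replicate 2, and 9 without either LD-F1 replicate. With library totals alone 5 and 4 rose and none fell. Without LD-F1 replicate 1, 3 members of the class were called lower for LD-F1 EVs.

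The zinc importer Slc39a4 (MGP_C57BL6NJ_G0022408, chr15:79565204-79569671, minus strand, same annotation) had 17 and 16.3 CPM with PBS, 44 and 38.3 CPM with LD-F1 EVs and 36.9 and 39.9 CPM with LD-F1_b EVs. Every EV library was above both PBS libraries, and the EV groups overlapped. Its log2 fold change was 1.3 ± 0.13 for LD-F1 EVs (2.47-fold, adjusted p = 1.69e-05 by edgeR) and 1.20 ± 0.13 for LD-F1_b EVs (2.3-fold, adjusted p = 7.58e-05). Slc30a1, the zinc exporter of the plasma membrane, had 11.5 and 9.95 CPM with PBS, 23.8 and 23.8 CPM with LD-F1 EVs and 20.7 and 16.9 CPM with LD-F1_b EVs. Both EV groups lay above PBS, with LD-F1 EVs highest. Its log2 fold changes were 1.14 ± 0.16 (adjusted p = 0.000284) and 0.81 ± 0.16 (adjusted p = 0.00665) by edgeR, and the second was lost without LD-F1_b replicate 1 or PBS replicate 2. Slc31a2, a copper carrier of endosomes and lysosomes, had 56.2 and 53.8 CPM with PBS, 87.7 and 89.3 CPM with LD-F1 EVs and 80.4 and 87.5 CPM with LD-F1_b EVs. It rose by 0.69 ± 0.10 and 0.61 ± 0.10 on the log2 scale (adjusted p = 0.000296 and 0.00154, edgeR), the latter lost without PBS replicate 2. The copper importer of the plasma membrane, Slc31a1, did not pass the test, with intervals of -0.18 to 0.27 and -0.32 to 0.13.

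The other metal carriers that rose with LD-F1 EVs changed by less. They were the magnesium carrier Slc41a2 (log2 0.53), the zinc carriers Slc30a6 (0.47) and Slc30a7 (0.45) of the secretory pathway, the zinc importer Slc39a1 (0.37), the haem carrier of lysosomes Slc48a1 (0.35) and the zinc carrier Slc30a9 (0.30). Each of these calls was lost without PBS replicate 1. Those of Slc39a1 and Slc30a9 were each lost in 7 of 13 other settings, that of Slc30a6 in 5 and that of Slc48a1 in 3. For each of these genes, library totals alone was among the settings. Of the 6, Slc30a7 also rose with LD-F1_b EVs, by 0.42, a call lost without any 1 of the PBS or LD-F1_b libraries. Slc39a1 shares 7740 bases with Golga2 on the same strand, so their reads may not be separable. The zinc carrier of the endoplasmic reticulum and Golgi, Slc39a7, was called for LD-F1_b EVs alone. It had 8.55 and 8 CPM with PBS, 10.6 and 11.9 CPM with LD-F1 EVs and 11.5 and 14.2 CPM with LD-F1_b EVs, with log2 fold changes of 0.44 (adjusted p = 0.119, edgeR) and 0.63 (adjusted p = 0.0458). The LD-F1_b call was lost in 7 of 13 other settings, among them library totals alone, DESeq2 and each PBS or LD-F1_b library left out. The difference between the EV groups was 0.19 with an interval of -0.20 to 0.58. The highest zinc importer by length-scaled level, Slc39a6 (250 in PBS), did not pass the test, with intervals of -0.19 to 0.16 and -0.29 to 0.07. Slc39a10, a zinc importer known in macrophage survival, was at 135 and 144 CPM with PBS, 160 and 99.3 CPM with LD-F1 EVs and 132 and 122 CPM with LD-F1_b EVs, so that the LD-F1 libraries lay on both sides of all others.

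**Figure D4:**
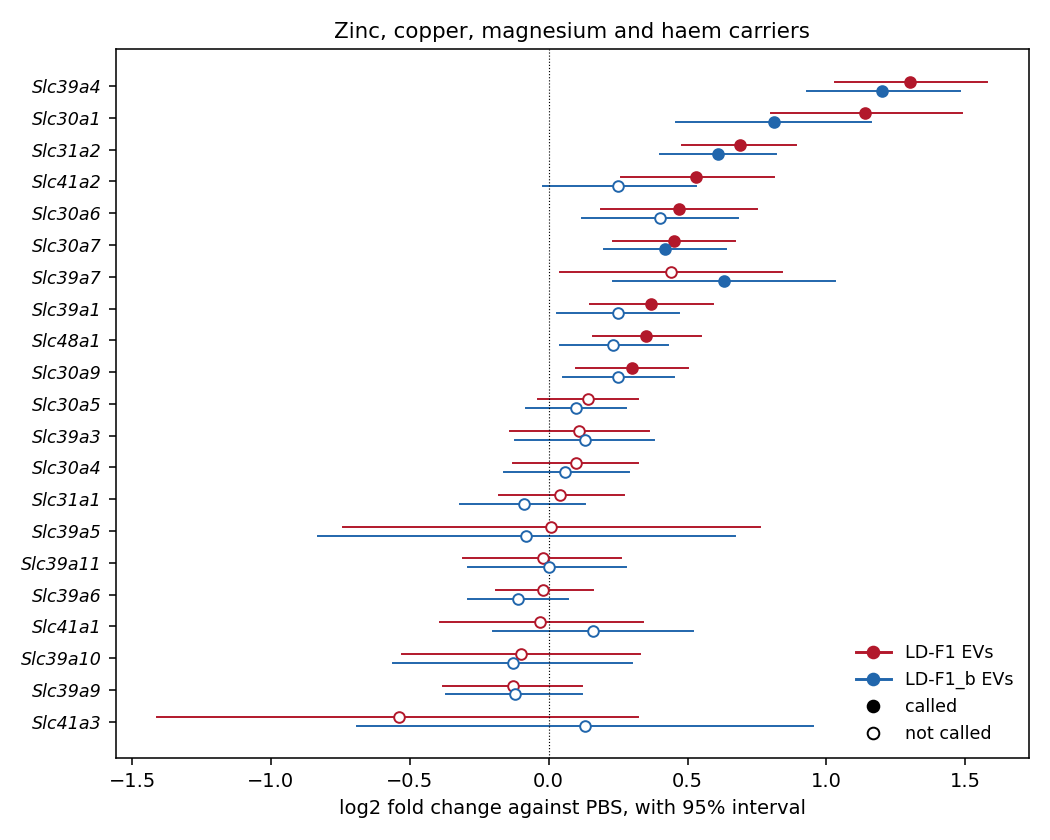
Log2 fold change against PBS (x axis) with its 95% interval for the 21 carriers of zinc, copper, magnesium and haem (y axis), for LD-F1 EVs in red and LD-F1_b EVs in blue. Filled points passed the test; Slc39a4 lies furthest to the right at 1.3 and 1.20, and no filled point lies left of 0.

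Promoters of the members were read from RefSeq on GRCm38.p6 and matched by symbol for 139 of the 175, as the 250 bases before each of 192 gene starts. The table's own coordinates belong to another annotation and were not joined to them. The promoter of Slc30a1 is shown because this gene is the textbook target of the zinc-sensing factor Mtf1, whose metal response element was searched as TGCACNC or TGCGCNC on both strands. The match is in capitals, and it begins 43 bases before the gene start (plus strand, GRCm38.p6, chr1:191906531-191906780).
Slc30a1: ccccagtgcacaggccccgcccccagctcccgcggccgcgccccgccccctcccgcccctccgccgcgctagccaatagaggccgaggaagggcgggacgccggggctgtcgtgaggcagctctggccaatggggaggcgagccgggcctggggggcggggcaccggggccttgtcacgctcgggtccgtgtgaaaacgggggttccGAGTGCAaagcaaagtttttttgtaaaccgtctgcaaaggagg
The same letters were in 21.4% of all 32851 promoters of this length, in 3 of the 7 matched metal carriers that rose with LD-F1 EVs and in 7 of the 11 matched metal carriers that were not called. Over all members they were in 11 of 24 that rose, 5 of 16 that fell and 36 of 99 not called. These counts take a member as holding the letters when any of its starts did; by the same rule they were in 23.8% of 27025 genes. A match describes the letters and is not a binding site.

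Amino acid and related carriers moved both ways, with 3 higher and 4 lower of 20 for LD-F1 EVs and 2 higher and 3 lower for LD-F1_b EVs. Left out in turn, LD-F1 replicate 1 took the LD-F1 counts to 5 and 8, and PBS replicate 1 took the rises to 1. For LD-F1_b EVs the rises were 1 without LD-F1_b replicate 1 or PBS replicate 1, and the falls 1 without LD-F1_b replicate 1. The glycine carrier Slc6a9 (MGP_C57BL6NJ_G0029078, chr4:123416614-123457847, plus strand, same annotation) had 16.7 and 16.7 CPM with PBS, 47.7 and 38.3 CPM with LD-F1 EVs and 31.3 and 31.9 CPM with LD-F1_b EVs. The groups did not overlap, and LD-F1 EVs were highest. It rose by 1.36 ± 0.13 (2.57-fold, adjusted p = 1.99e-05, edgeR) and by 0.92 ± 0.14 (1.89-fold, adjusted p = 0.000979). Slc16a10, a carrier of aromatic amino acids, had 138 and 149 CPM with PBS, 195 and 192 CPM with LD-F1 EVs and 210 and 202 CPM with LD-F1_b EVs. All EV libraries were above PBS, and its log2 fold changes were 0.43 ± 0.08 and 0.52 ± 0.08 (adjusted p = 0.00308 and 0.00189, edgeR), calls lost without PBS replicate 1 and, for LD-F1_b EVs, also without LD-F1_b replicate 1. The serotonin carrier Slc6a4 was called for LD-F1 EVs at 4.42 and 5.48 CPM against 2.22 and 2.96 CPM, a call lost without any 1 of 5 libraries and with DESeq2.

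Of the 4 falls with LD-F1 EVs in this class, 3 were carriers of the Slc6 family that take up osmolytes or creatine. Slc6a6, which takes up taurine, had 971 and 903 CPM with PBS, 660 and 503 CPM with LD-F1 EVs and 678 and 639 CPM with LD-F1_b EVs. Slc6a12, which takes up betaine and GABA, had 286 and 276 CPM with PBS, 174 and 150 CPM with LD-F1 EVs and 158 and 165 CPM with LD-F1_b EVs. Slc6a8, which takes up creatine, had 307 and 281 CPM with PBS, 199 and 173 CPM with LD-F1 EVs and 178 and 201 CPM with LD-F1_b EVs. In all 3 genes every EV library was below both PBS libraries, and the EV groups overlapped each other. The log2 fold changes for LD-F1 EVs were -0.69 ± 0.12 for Slc6a6, -0.79 ± 0.09 for Slc6a12 and -0.66 ± 0.10 for Slc6a8, at edgeR adjusted p of 0.00112, 7.65e-05 and 0.000562. For LD-F1_b EVs they were -0.51 ± 0.12, -0.80 ± 0.09 and -0.63 ± 0.10, at adjusted p of 0.0139, 0.000188 and 0.00165. The LD-F1_b call of Slc6a6 was lost without any 1 of the PBS or LD-F1_b libraries, and that of Slc6a8 without LD-F1_b replicate 1. The related betaine and GABA carrier gene Slc6a13 did not pass the test at 7.93 to 10.2 CPM in the 6 libraries. Slc7a4 fell with LD-F1 EVs from 3 and 3.21 CPM to 0.824 and 1.56 CPM, a call at an adjusted p of 0.0447 that was lost without any 1 of 5 libraries.

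Several amino acid carriers known in macrophages or abundant in them did not pass the test. The sodium-coupled neutral amino acid carrier Slc38a1 was at 281 to 345 CPM in the 6 libraries, with intervals of -0.25 to 0.18 and -0.26 to 0.18. Slc43a2, a carrier of large neutral amino acids, was at 384 to 462 CPM, with intervals of -0.31 to 0.10 and -0.28 to 0.13. Slc38a9, the arginine sensor and carrier of lysosomes, was at 9.74 to 15.6 CPM and had intervals of -0.58 to 0.37 and -0.34 to 0.60. None of the 5 Slc38 members was called.

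Sugar and polyol carriers had 2 members higher and 4 lower of 12 for LD-F1 EVs and 1 higher and 2 lower for LD-F1_b EVs. The falls for LD-F1 EVs were 1 and 2 without PBS replicates 1 and 2, and the rises 1 without LD-F1 replicate 2, PBS replicate 1 or either LD-F1_b replicate. For LD-F1_b EVs the falls were 4 without either LD-F1 replicate and 1 without LD-F1_b replicate 2 or either PBS replicate, and the rises 2 without either LD-F1 replicate. The hexose carrier of lysosomes Slc2a6 (MGP_C57BL6NJ_G0025924, chr2:25841969-25848604, minus strand, same annotation) had 30.4 and 26.8 CPM with PBS, 53.1 and 55.9 CPM with LD-F1 EVs and 51.2 and 58.2 CPM with LD-F1_b EVs. Both EV groups were above PBS and overlapped each other. It rose by 0.93 ± 0.12 and 0.94 ± 0.12 on the log2 scale, or 1.91-fold in both (adjusted p = 0.000135 and 0.000309, edgeR). The sugar phosphate carrier Slc37a2 (MGP_C57BL6NJ_G0035052, chr9:36332059-36360192, minus strand, same annotation) had 223 and 228 CPM with PBS, 114 and 113 CPM with LD-F1 EVs and 125 and 133 CPM with LD-F1_b EVs. The libraries of each group were close together and the groups did not overlap. It was 1.99-fold lower with LD-F1 EVs (log2 -1.0 ± 0.08, adjusted p = 6.22e-06, edgeR) and 1.75-fold lower with LD-F1_b EVs (log2 -0.81 ± 0.08, adjusted p = 7.45e-05).

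The myo-inositol carrier Slc5a3 had 37.6 and 36.8 CPM with PBS, 25.1 and 19.1 CPM with LD-F1 EVs and 27.4 and 18.9 CPM with LD-F1_b EVs. All EV libraries were below PBS, and the EV groups overlapped. Its log2 fold changes were -0.75 ± 0.18 and -0.69 ± 0.18 (adjusted p = 0.00964 and 0.0257, edgeR). The first call was lost without PBS replicate 1 and the second without LD-F1_b replicate 2 or either PBS replicate. Slc5a3 shares 29149 bases with Mrps6 on the same strand, so their reads may not be separable. The high-affinity glucose carrier Slc2a3 had 52.7 and 53.4 CPM with PBS, 41.7 and 38.3 CPM with LD-F1 EVs and 42.1 and 44.1 CPM with LD-F1_b EVs. It fell with LD-F1 EVs by 0.41 on the log2 scale (adjusted p = 0.0158, edgeR) and did not pass with LD-F1_b EVs (-0.30, adjusted p = 0.0939). The fourth call lower was Slc45a4 (-0.36, adjusted p = 0.0467), lost in 10 of 13 other settings. The glucose 6-phosphate carrier of the endoplasmic reticulum, Slc37a4, was called higher for LD-F1 EVs (0.53, adjusted p = 0.0234, edgeR) and not for LD-F1_b EVs (0.48, adjusted p = 0.0568). The Slc37a4 call was lost in 6 of 13 other settings, among them library totals alone and only the groups compared.

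Among the 9 carriers of mono- and dicarboxylates, Slc16a3 was called in both comparisons and no other member was. Slc16a3, the lactate exporter of glycolytic cells, had 499 and 496 CPM with PBS, 716 and 664 CPM with LD-F1 EVs and 636 and 700 CPM with LD-F1_b EVs. All EV libraries were above PBS, and the EV groups overlapped. It rose by 0.47 ± 0.09 (1.39-fold, adjusted p = 0.00197, edgeR) and 0.43 ± 0.09 (1.34-fold, adjusted p = 0.00749), the latter lost without any 1 of the PBS or LD-F1_b libraries. The other abundant lactate carrier, Slc16a1, had 399 and 415 CPM with PBS, 388 and 415 CPM with LD-F1 EVs and 378 and 384 CPM with LD-F1_b EVs, with intervals of -0.20 to 0.16 and -0.27 to 0.08. Bsg and Emb encode partner proteins that lactate carriers need at the surface. Bsg rose with LD-F1 EVs (log2 0.37, adjusted p = 0.0148) and Emb did not pass (-0.19, adjusted p = 0.176). The promoter of Slc16a3 is shown because the gene is a known target of hypoxia-inducible factor, whose core ACGTG was searched on both strands. The 2 matches, in capitals, begin 27 and 14 bases before the gene start (RefSeq, GRCm38.p6, chr11:120948817-120949066, plus strand).
Slc16a3: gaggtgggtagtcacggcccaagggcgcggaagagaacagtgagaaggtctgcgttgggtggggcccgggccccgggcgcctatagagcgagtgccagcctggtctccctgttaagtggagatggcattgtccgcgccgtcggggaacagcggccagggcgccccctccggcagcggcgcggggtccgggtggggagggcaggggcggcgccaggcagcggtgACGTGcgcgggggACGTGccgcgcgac
At least 1 match was in 16.6% of all promoters of this length and at least 2 in 6.81%. The search counted CACGTG, which reads the same on both strands, as 2 matches. The 6.81% can therefore include single sites of that kind, unlike the 2 separate matches of Slc16a3. Taken per gene over any of its starts, at least 1 match was in 18.5% of all genes. Among the members it was in 9 of 24 that rose with LD-F1 EVs, 3 of 16 that fell and 26 of 99 not called.

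Ion carriers had 1 member higher and 6 lower of 27 for LD-F1 EVs and 1 higher and 3 lower for LD-F1_b EVs. The 6 falls were 1 and 2 without PBS replicates 1 and 2, and the 1 rise was 3 without LD-F1 replicate 2. With library totals alone 1 rose and 8 fell for LD-F1 EVs. With offsets for the trend with gene length 4 rose and 4 fell, so the lean to falls was not kept under that scaling. The 3 falls of LD-F1_b EVs were 5 without either LD-F1 replicate and 1 without PBS replicate 1 or either LD-F1_b replicate. The member that rose was Slc4a7 (MGP_C57BL6NJ_G0021395, chr14:7448532-7557122, plus strand, same annotation), a sodium bicarbonate importer that loads cells with base and is known in macrophages for phagosome acidification. It had 119 and 126 CPM with PBS, 281 and 256 CPM with LD-F1 EVs and 217 and 191 CPM with LD-F1_b EVs. The 3 groups did not overlap, with LD-F1 EVs highest. Its log2 fold changes were 1.13 ± 0.10 (2.19-fold, adjusted p = 5.91e-06, edgeR) and 0.73 ± 0.09 (1.66-fold, adjusted p = 0.000394).

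Slc4a2, which exchanges bicarbonate for chloride and so works against base loading, had 165 and 161 CPM with PBS, 102 and 90.4 CPM with LD-F1 EVs and 103 and 106 CPM with LD-F1_b EVs. All EV libraries were below PBS. It fell by 0.76 ± 0.09 (1.69-fold, adjusted p = 0.000104, edgeR) and by 0.64 ± 0.09 (1.56-fold, adjusted p = 0.000775) on the log2 scale. It overlaps Fastk on the opposite strand by 2511 bases. The sulfate carrier Slc26a11 had 13 and 12.3 CPM with PBS, 6.52 and 7.11 CPM with LD-F1 EVs and 6.4 and 6.36 CPM with LD-F1_b EVs, with EV libraries all lower. It fell 1.86-fold and 1.99-fold (adjusted p = 0.00424 and 0.00458, edgeR), calls lost without PBS replicate 1 and, for LD-F1_b EVs, also without either LD-F1_b replicate. Slc12a9, of the cation-chloride family, fell in both comparisons by 0.39 and 0.51 on the log2 scale, calls lost without either replicate of PBS or of LD-F1_b. The sodium-potassium-chloride importer Slc12a2 was at 79.7 and 78.5 CPM with PBS, 55.8 and 64.6 CPM with LD-F1 EVs and 66.6 and 56 CPM with LD-F1_b EVs. It passed for LD-F1 EVs (-0.39, adjusted p = 0.0291, edgeR) and not for LD-F1_b EVs (-0.37, adjusted p = 0.061). The Slc12a2 call was lost in 3 of 13 other settings, among them offsets for the trend with gene length. The other falls for LD-F1 EVs were the sodium-proton exchanger Slc9a5 (-0.67) and Slc9a3r1 (-0.42), which encodes a scaffold protein named for an exchanger.

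Carriers of the endoplasmic reticulum and Golgi, family Slc35, mostly bring nucleotide sugars to the enzymes that build glycans. Of 20 members, 3 rose and 2 fell with LD-F1 EVs, and 2 rose and 1 fell with LD-F1_b EVs. For LD-F1 EVs the rises were 1 and the falls 0 without PBS replicate 1, the falls 5 without LD-F1 replicate 1, and the falls 1 without either LD-F1_b replicate. With library totals alone the counts were 1 and 5, and with offsets for the trend with gene length 3 and 4. Both turn the balance of the class. For LD-F1_b EVs the rises were 1 and the falls 0 without any 1 of the PBS or LD-F1_b libraries, and the falls 4 without either LD-F1 replicate. Slc35b1, which brings ATP into the endoplasmic reticulum, had 47.6 and 54.7 CPM with PBS, 85 and 88.4 CPM with LD-F1 EVs and 80.6 and 84.8 CPM with LD-F1_b EVs. All EV libraries were above PBS. It rose by 0.76 ± 0.10 (1.69-fold, adjusted p = 0.000233, edgeR) and 0.69 ± 0.10 (1.62-fold, adjusted p = 0.000991). The UDP-galactose carrier Slc35a2 had 17.8 and 21.4 CPM with PBS, 27.2 and 28.9 CPM with LD-F1 EVs and 26.7 and 31.3 CPM with LD-F1_b EVs. Its log2 fold changes were 0.51 and 0.56 (adjusted p = 0.0223 and 0.0231, edgeR), and the first was lost with library totals alone and without PBS replicate 1. The second was lost without any 1 of the PBS or LD-F1_b libraries.

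Slc35f5 was the third that rose with LD-F1 EVs (0.38, adjusted p = 0.0311, edgeR), a call lost in 8 of 13 other settings, DESeq2 among them. The GDP-fucose carrier Slc35c1 fell with LD-F1 EVs, with 62.1 and 54.9 CPM in PBS and 46.7 and 33.1 CPM with LD-F1 EVs (log2 -0.55, adjusted p = 0.0198, edgeR). Its LD-F1_b libraries stood at 44.7 and 50 CPM (-0.30, adjusted p = 0.227). The Slc35c1 call was lost in 4 of 13 other settings, among them only the groups compared. Slc35f6 fell in both comparisons, from 57.8 and 55.4 CPM to 38.7 and 39.3 CPM and to 39.6 and 42.4 CPM. The first call was lost without PBS replicate 1, and the second without any 1 of the PBS or LD-F1_b libraries. The highest of the family by length-scaled level was Slc35b2 (157 in PBS), which supplies the sulfate donor of the Golgi. It did not pass, with intervals of -0.49 to -0.02 in both comparisons. Another carrier of the endoplasmic reticulum, Slc33a1, brings in acetyl-CoA and was classed with vitamins and cofactors. It had 35 and 35.2 CPM with PBS, 44.7 and 62.1 CPM with LD-F1 EVs and 59.9 and 52.8 CPM with LD-F1_b EVs. It rose by 0.61 ± 0.15 and 0.68 ± 0.15 (adjusted p = 0.0109 and 0.00977, edgeR), calls lost without either PBS replicate and, for LD-F1_b EVs, without either of its own.

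The mitochondrial family was the largest class, and 30 of its 37 members were not called for LD-F1 EVs, at a class median of 0.05. For LD-F1 EVs 4 rose and 3 fell, and for LD-F1_b EVs 2 rose and none fell. Without LD-F1 replicate 1 the LD-F1 counts were 8 and 7. Without PBS replicate 1 they were 2 and 0, and without PBS replicate 2 the rises were 2. With library totals alone 2 rose and 7 fell. For LD-F1_b EVs the rises were 0 without any 1 of the PBS or LD-F1_b libraries, 6 and 5 without LD-F1 replicates 1 and 2, and then 2 fell in either case. Slc25a33, a carrier of pyrimidine nucleotides, had 6.13 and 6.05 CPM with PBS, 9.89 and 16.9 CPM with LD-F1 EVs and 9.11 and 8.57 CPM with LD-F1_b EVs. The LD-F1 libraries were above all others and far apart from each other. It rose by 1.14 ± 0.24 with LD-F1 EVs (adjusted p = 0.00555, edgeR), or by 1.47 without LD-F1 replicate 1 and 0.70 without LD-F1 replicate 2, and with LD-F1_b EVs the value was 0.54 (adjusted p = 0.209).

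Slc25a37, the mitochondrial iron importer mitoferrin-1, had 102 and 97.6 CPM with PBS, 169 and 145 CPM with LD-F1 EVs and 132 and 125 CPM with LD-F1_b EVs. The 3 groups did not overlap. It rose by 0.65 ± 0.10 and 0.37 ± 0.10 (adjusted p = 0.000441 and 0.0281, edgeR), the latter lost without any 1 of the PBS or LD-F1_b libraries. Its relative Slc25a28, mitoferrin-2, did not pass, with intervals of -0.52 to -0.04 and -0.40 to 0.08. Slc25a38, which brings in glycine for haem synthesis, rose with LD-F1 EVs (0.48, adjusted p = 0.02, edgeR) and did not pass with LD-F1_b EVs (0.43, adjusted p = 0.0521). The Slc25a38 call was lost in 5 of 13 other settings, among them library totals alone and only the groups compared. Slc25a5 had 439 and 464 CPM with PBS, 534 and 559 CPM with LD-F1 EVs and 598 and 597 CPM with LD-F1_b EVs, and rose by 0.27 and 0.40 (adjusted p = 0.031 and 0.00714, edgeR). Both Slc25a5 calls were lost without any 1 of the PBS or LD-F1_b libraries, and the LD-F1 call in 7 of 13 other settings in all. The other ADP/ATP carrier, Slc25a4, was at 250 to 319 CPM and did not pass. The dicarboxylate carrier Slc25a10 (-0.57), the glutathione carrier Slc25a40 (-0.72) and Slc25a45 (-0.61) fell with LD-F1 EVs, and none of the 3 passed for LD-F1_b EVs. The citrate carrier Slc25a1, known in inflammatory macrophages, was at 57.3 to 68.4 CPM, with intervals of -0.26 to 0.18 and -0.35 to 0.09.

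Nucleoside carriers had 3 members, of which 2 fell with LD-F1 EVs and 1 with LD-F1_b EVs. Over all genes tested, 9.87% and 4.54% fell. Slc29a3, which releases nucleosides from lysosomes, had 24.3 and 23.1 CPM with PBS, 13.8 and 6.47 CPM with LD-F1 EVs and 10.8 and 9.81 CPM with LD-F1_b EVs. All EV libraries were below PBS, and the LD-F1 libraries lay on both sides of the LD-F1_b libraries. It fell 2.35-fold with LD-F1 EVs (log2 -1.23 ± 0.26, adjusted p = 0.00567, edgeR) and 2.29-fold with LD-F1_b EVs (log2 -1.20 ± 0.26, adjusted p = 0.0115), the latter lost without any 1 of the PBS or LD-F1_b libraries. For LD-F1 EVs the log2 value of Slc29a3 was -1.87 without LD-F1 replicate 1 and -0.78 without LD-F1 replicate 2, the latter under a 2-fold fall. Slc29a1 of the plasma membrane had 76.1 and 66 CPM with PBS, 50.8 and 43.4 CPM with LD-F1 EVs and 56.4 and 64.7 CPM with LD-F1_b EVs. It fell with LD-F1 EVs (-0.59, adjusted p = 0.00409, lost without PBS replicate 1), and for LD-F1_b EVs the value was -0.23 (adjusted p = 0.263). Another lysosomal exporter, the sialic acid carrier Slc17a5, had 26.2 and 28.1 CPM with PBS, 16 and 12.9 CPM with LD-F1 EVs and 15.6 and 15.6 CPM with LD-F1_b EVs. It fell 1.87-fold and 1.74-fold (adjusted p = 0.000955 and 0.00445, edgeR), the latter lost without PBS replicate 2 or either LD-F1_b replicate.

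For LD-F1 EVs, 2 of 4 members of the phosphate and Slc17 class, 3 of 9 of the vitamin class and 1 of 8 of the organic ion class were called in either direction. These were 50%, 33.3% and 12.5% of classes of few members, beside 21.2% of all genes tested. In the vitamin class 0 were called without PBS replicate 1 and 0 without PBS replicate 2. The phosphate importer Slc20a1 had 218 and 233 CPM with PBS, 294 and 303 CPM with LD-F1 EVs and 320 and 312 CPM with LD-F1_b EVs. It rose by 0.41 ± 0.08 and 0.49 ± 0.08 (adjusted p = 0.00369 and 0.00238, edgeR), and both calls were lost without PBS replicate 1, the second also without LD-F1_b replicate 1. The biotin and pantothenate carrier Slc5a6 had 29.2 and 29.7 CPM with PBS, 21.6 and 23 CPM with LD-F1 EVs and 18.7 and 19.1 CPM with LD-F1_b EVs. It fell by 0.40 (adjusted p = 0.0373, edgeR) and by 0.64 (adjusted p = 0.00619) on the log2 scale. The first call was lost in 8 of 13 other settings, among them DESeq2 and each PBS or LD-F1_b library left out. The second was lost without any 1 of the PBS or LD-F1_b libraries. Slc5a6 overlaps Atraid on the opposite strand by 613 bases. The choline carrier Slc44a2 was called for LD-F1 EVs (0.26, adjusted p = 0.0411), a call lost in 9 of 13 other settings. The folate carrier Slc19a1 was at 106 to 131 CPM and did not pass. Slc22a4, the ergothioneine carrier, had 14.7 and 14.8 CPM with PBS, 22.2 and 26.5 CPM with LD-F1 EVs and 21 and 18.9 CPM with LD-F1_b EVs. It rose with LD-F1 EVs (0.72 ± 0.15, adjusted p = 0.00398), and with LD-F1_b EVs the value was 0.43 (adjusted p = 0.0866).

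None of the fatty acid carriers was called, where 0 of 3 passed in either comparison. Slc27a1, the second highest member by length-scaled level, was at 600 to 676 CPM in the 6 libraries, with intervals of -0.09 to 0.28 and -0.10 to 0.26. Slc27a3 and Slc27a4 had log2 values of -1.0 and -0.26 for LD-F1 EVs, without passing the test. Slc27a3 was low, at 1.92 to 5.23 CPM. Of carriers known in macrophages that are not among the members, Slc39a8 had 1 count in all and Slc46a1 and Slc9a9 had none. Slc36a1 and Slc28a2 were not analysed here.

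Between the EV groups, 1 of the 175 members was called, and it was lower with LD-F1_b EVs than with LD-F1 EVs. This was 0.571% of the members, where 0.424% of all genes tested were called, 0.0157% higher and 0.408% lower. The libraries of these groups did not overlap for 34.3% of the members and 34% of all genes tested. The member was Slc15a3, at 174 and 192 CPM against 303 and 262 CPM, a log2 difference of -0.63 ± 0.10 or 1.55-fold (adjusted p = 0.0107, edgeR). Its call was lost without LD-F1_b replicate 1 (-0.56, adjusted p = 0.46) or replicate 2 (-0.70, adjusted p = 0.23). DESeq2 called 0 members higher and 2 lower, and 15 members had an unadjusted p under 0.05 in edgeR's test. The next members by adjusted p were Slc4a7 (-0.40, interval -0.60 to -0.19, adjusted p = 0.126), Slc6a9 (-0.44, interval -0.73 to -0.16, adjusted p = 0.257) and Slc25a45 (0.38, interval 0.11 to 0.65, adjusted p = 0.342). Of the 12 members that rose and 11 that fell with LD-F1 EVs alone, none was called between the EV groups, so they are not shown to differ between them.

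The 13 carriers excluded by name moved in one direction. With LD-F1 EVs 11 of them rose and none fell, at a median log2 fold change of 0.84, and with LD-F1_b EVs 9 rose and none fell, at a median of 0.61. These were 84.6% and 69.2% of the 13, where 21.2% and 11% of all genes tested were called. The 13 had been set aside with earlier results in view, and their direction is therefore a description. Carriers that bear other names, with the partners of carriers, were listed as 26 genes, of which 24 were in the table and 19 tested. With LD-F1 EVs 2 of these rose and 5 fell, and with LD-F1_b EVs 1 rose and 4 fell. That was 36.8% and 26.3% of the 19, beside the same 21.2% and 11% of all genes. Among the carriers of this list, the lysosomal cystine exporter Ctns had 31.3 and 27.7 CPM with PBS and 15 and 11.2 CPM with LD-F1 EVs (-1.17 ± 0.17, adjusted p = 0.000324, edgeR). The phosphate exporter Xpr1 had 124 and 125 CPM with PBS and 86 and 61 CPM with LD-F1 EVs (-0.76 ± 0.13, adjusted p = 0.00142, edgeR). The other falls with LD-F1 EVs were Slco4a1 (log2 -1.02), Mfsd12 (-0.87) and Ucp2 (-0.28), and the rises were Mfsd2a (0.78) and Bsg (0.37). With LD-F1_b EVs the falls were Slco4a1 (-0.89), Mfsd12 (-0.75), Ctns (-0.67) and Xpr1 (-0.54), and the rise was Mfsd2a (0.84).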

How the data were processed

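RNA of 6 libraries (2 each of PBS, LD-F1 and LD-F1_b) was sequenced after poly-T selection, per the labels' protocols. The authors deposited raw counts per gene in 1 table; fastp, HISAT2 2.0.5, StringTie 1.3.3b, featureCounts 1.5.0-p3 and GRCm39 are named per the submitters' processing notes. However, 41096 of 41972 identifiers are of the C57BL/6NJ annotation, so table coordinates are given as that annotation's. The sources used here do not give the strand setting, and 33 members overlap another gene with counts. Genes passing filterByExpr (12740) were fitted in R 4.3.3 with edgeR 4.0.16 (TMM, robust quasi-likelihood, all groups in 1 fit, Benjamini-Hochberg over all genes, call at adjusted p under 0.05). Intervals are 95% and p-values measure the spread between these libraries. The fit was tested on simulated data. CPM carries counting error below 3 counts (0.189 to 0.225 CPM). Length-scaled levels use the gene length of the deposited table and no TMM factors. Alternatives were other scalings, no filter, the replicate block, only the groups compared, each library left out and DESeq2 1.42.0. Members, classes and lists were chosen with earlier results of these data known. Members were named when among the 12 highest or lowest called of a comparison at a mean of at least 5 CPM without overlap, the 2 highest or most changed of a class, or on a list of carriers known in macrophages; further called members were named after their values were seen.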

Additional observations from a re-analysis of the deposited data

Results flagged for a closer look

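Slc15a3 was singled out because its response differed between the EV groups by a direct test: it was lower with LD-F1_b EVs than with LD-F1 EVs by a log2 difference of -0.63 (1.55-fold, adjusted p = 0.0107 by edgeR), with 2 of 2 LD-F1_b libraries below both LD-F1 libraries. Over the settings in which neither LD-F1_b library was left out, the call held; without LD-F1_b replicate 1 or 2 the adjusted p was 0.46 or 0.23.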

How the results depend on the processing

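For LD-F1 EVs against PBS, 28 members rose and 23 fell; with library totals alone these were 17 and 37, and leaving out 1 library gave 12 to 34 and 7 to 41. The median moved from -0.035 to -0.139 with library totals. For LD-F1_b EVs, 17 rose and 12 fell; fitting only the groups compared gave 28 and 25, and leaving out 1 library 7 to 29 and 4 to 25. That median moved from -0.014 to -0.087 with library totals. Between the EV groups, 0 were higher and 1 lower; gene length offsets, no filter and DESeq2 each gave 2 lower, and leaving out 1 library gave 0 to 10 higher and 0 to 5 lower, with 10 without LD-F1 replicate 1. Slc39a10 changed sign there without LD-F1 replicate 1 (0.35, adjusted p = 0.0105 by edgeR, against -0.03 with all libraries and -0.34 without LD-F1 replicate 2). The cause of these shifts was not tested. The deviations of replicate 1 from its group mean correlated between groups at 0.0837, -0.0234 and 0.00358. With 2 libraries a group this check cannot settle whether the numbers pair the libraries. With the replicate block the counts were 27 and 24, 16 and 12, and 0 and 1. In all 13 alternatives 19 of 51 calls for LD-F1, 9 of 29 for LD-F1_b and 0 of 1 between the EV groups held, and 0 called members changed sign. With 1 library left out, the lone library is assumed to vary like the others.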
